A study of Mus musculus with 24 samples.

Results

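The peaks described here are loci at which chromatin was immunoprecipitated with an antibody against TCF7L2 from mouse neocortex at embryonic day E18.5. The list holds 53219 peaks, of which 52595 lie on chromosomes 1 to 19 and are described below. They are part of the 311477 autosomal peaks in the 6 lists of the series, which also profiled other transcriptional regulators (TRs) and another embryonic stage. Cortex came from wild-type mice on a CD1 background, with no treatment or engineered allele in any group. There were 2 ChIP libraries and 2 input libraries (sheared chromatin sequenced without immunoprecipitation), all at E18.5. The labels call the target TCF4, an older name for TCF7L2 that is also the symbol of an unrelated basic helix-loop-helix gene, whereas the study's methods name a TCF7L2 antibody. The replicates were merged before peaks were called, so that each peak has a single value with no replicate error, no difference between peaks could be tested across samples, and shares of peaks are given with 95% Wilson intervals that cover counting error only. The tissue was a dissected cortex with all of its cell types, and a peak list does not say which of them carried a peak.

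TCF7L2 belongs to the TCF/LEF family of DNA-binding proteins. In the absence of a Wnt signal, TCF/LEF factors sit on DNA with Groucho/TLE corepressors, while a cytoplasmic destruction complex built on APC and AXIN proteins, with GSK3 and casein kinase 1, marks beta-catenin for breakdown. When a Wnt ligand engages a Frizzled receptor and an LRP co-receptor the complex is disabled, beta-catenin enters the nucleus, binds the TCF/LEF factor and recruits BCL9 and PYGO proteins, and target genes such as Axin2 are transcribed.

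The TCF7L2 consensus of the study's motif table stands for the words ACATCAAAGG and ACTTCAAAGG, read on either strand. The sequences below show where it fell in strong loci that held it, since these are the peaks in which the factor's own site and a high enrichment came together. They were read from GRCm38 (mm10) on the plus strand, 5′ to 3′, with the consensus in capitals, so that a site on the minus strand appears as its reverse complement. The first is the 200 bp around the summit of the peak 4388 bp upstream of Lef1 (chr3:131105983-131106182), and the second the same window 404 bp upstream of Tcf7 (chr11:52283318-52283517). The last is the window at the strongest peak of the list, at the Rnf44 promoter (chr13:54693925-54694124), which held neither the consensus nor the 6-letter core CTTTGA, and so has no capitals.
Lef1 upstream: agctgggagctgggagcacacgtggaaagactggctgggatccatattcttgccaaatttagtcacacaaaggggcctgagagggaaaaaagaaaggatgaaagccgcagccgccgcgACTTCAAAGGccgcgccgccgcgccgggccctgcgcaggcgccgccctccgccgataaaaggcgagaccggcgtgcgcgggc
Tcf7 promoter: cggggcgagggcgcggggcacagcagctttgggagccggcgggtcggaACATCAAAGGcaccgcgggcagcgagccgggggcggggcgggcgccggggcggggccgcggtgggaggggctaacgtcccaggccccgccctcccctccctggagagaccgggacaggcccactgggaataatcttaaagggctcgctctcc
Rnf44 promoter: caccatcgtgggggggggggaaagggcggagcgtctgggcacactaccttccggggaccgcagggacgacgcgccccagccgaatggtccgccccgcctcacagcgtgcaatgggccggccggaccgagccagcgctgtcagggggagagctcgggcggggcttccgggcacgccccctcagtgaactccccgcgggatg

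Further sites among the 10 strongest peaks with the consensus within 100 bp of the summit are shown as 30 bases centred on the match. The site in the Axin2 promoter peak, which lay farther from its summit, is added. They lay at chr1:74588040-74588069 (Zfp142), chr8:26961509-26961538 (upstream of Zfp703), chr8:69121855-69121884 (nearest coding gene Lzts1), chr9:65162921-65162950 (an intron of Igdcc3), chr8:126538851-126538880 (nearest coding gene Irf2bp2), chr11:95824423-95824452 (Phospho1), chr11:42421222-42421251 (Gabrb2) and chr11:108920779-108920808 (Axin2).
Zfp142: tcctcgggggCCTTTGATGTggccgccccc
Zfp703 distal: catcccagtcACTTCAAAGGcaggggaagt
Lzts1 distal: ctgcatttgcACTTCAAAGGggtctggccc
Igdcc3 intron: agctgcggccACTTCAAAGGggcccggctg
Irf2bp2 distal: tgaggcggcaACATCAAAGGgtgtgtgtgt
Phospho1: gcagcccgccCCTTTGATGTgcgccggcgc
Gabrb2: cgccgctgccCCTTTGATGTtttggtacgc
Axin2 promoter: tcggctcgcgCCTTTGAAGTgcacagttaa

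The 10 peaks chosen by a match within 100 bp of the summit ranged in fold enrichment from 7.88 to 23.3. The lowest was at Gabrb2, a GABA-A receptor subunit gene, and the highest upstream of Lef1. Fold enrichment is the ratio of ChIP reads at the summit to the reads expected from a single genome-wide background, with 1 read added to each. Of the 10, 5 held ACATCAAAGG and 5 held ACTTCAAAGG. The middle of the match lay 14 bp from the summit at the Irf2bp2 locus, 17 bp at Gabrb2 and 23 bp upstream of Lef1. It lay 38 bp away at the Zfp703 promoter, and the farthest was 67 bp at the Lzts1 locus. The choice of peaks bounds these distances, since a match had to lie within 100 bp of the summit. Zfp703, which encodes a zinc finger repressor, was the coding gene nearest to 2 of the 10, its promoter peak (fold enrichment 17.3) and a peak 15827 bp upstream (13.5). Peaks at Zfp142 (14.4), the Lzts1 locus (12.7), Igdcc3 (11.7), the Irf2bp2 locus (10.7), the Tcf7 promoter (10.4) and Phospho1 (9.96) completed the set.

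Most peaks stood only modestly above the background. The median fold enrichment was 3.50 (quartiles 3.07 and 5.04), equal to 31 reads at the summit where 8.14 were expected, and 61.7% of the peaks lay under 4. At the top, 1059 peaks (2.01%) reached a fold enrichment of 10 and 11 reached 20. Across the 52595 peaks strength and width rose together (Spearman's rho 0.80 between fold enrichment and width, as a description of 1 merged library), with quartiles of width at 275 and 838 bp.

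The strongest peak, at Rnf44, a RING finger gene, held 383 reads at its summit, 118 bp upstream of the nearest start site, a fold enrichment of 42.0 (chr13:54693090-54695056). The peak at the Axin2 promoter had rank 3, at 37.5 (342 reads, 178 bp upstream of the nearest start site, chr11:108919760-108922891). Axin2 encodes a scaffold of the destruction complex and is the most widely used read-out of Wnt signalling. A further peak, of rank 7 at 26.1 (chr11:109011572-109012185), lay in intergenic sequence 88668 bp downstream of another, nearer start site of Axin2, and closer to the processed pseudogene Gm11668. The peak upstream of Lef1, which encodes another TCF/LEF factor, had rank 8 at 23.3 (212 reads, chr3:131105718-131108144).

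The other leading peaks lay at genes of many kinds. The peaks of ranks 2 and 4 (39.2 and 37.2) were neighbours on chromosome 17 (chr17:39842857-39847254 and chr17:39847349-39848969), over the lincRNA Gm26917 and CT010467.1, which is annotated as ribosomal RNA, with the nearest protein-coding start site, of Esp38, more than 100 kb away (104804 and 101890 bp). Folds were computed against 1 genome-wide background, so whether the input was also high over this annotated ribosomal RNA was not tested. The promoters of Sfr1, a homologous recombination factor, and Ptov1 both reached 28.2, and that of Hspa1l, a member of the HSP70 chaperone family, 23.1. Fold enrichments of 20.7 and 20.6 were measured at 2900052L18Rik, a noncoding transcript 1436 bp from Bahcc1, and at Pip5k1c, a phosphoinositide kinase gene. The intronic peak at the lincRNA Gm33838 (19.9, nearest coding gene Rpusd4) had its summit in an annotated repeat, as did the intergenic peaks of Axin2 and Lef1.

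Signalling and chromatin genes were found among the remaining ranks. The peak in the Ptch1 promoter, the gene of the Hedgehog receptor, had a fold enrichment of 17.95, with its summit 611 bp downstream of the nearest start site. Calm3, a calmodulin gene, reached 18.4 and Ccdc85c 19.3, and an intergenic peak 55964 bp upstream of Ezh2, the catalytic subunit of Polycomb repressive complex 2, held 168 reads at its summit. The noncoding 2410006H16Rik (19.8, nearest coding gene Trpv2) and 4930517E14Rik (17.95, nearest coding gene Prdm10), Ube2b (17.7), Sfi1 (17.6), Raly (17.4), Mgea5 (17.3), Zfp703 (17.3), Hjurp (17.2) and Aida (17.2) completed the 25. The 26th peak had the same fold enrichment as the 25th. Of the 25 strongest peaks 21 overlapped a promoter, and 17 had a summit within 500 bp of a start site.

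**Figure D1:**
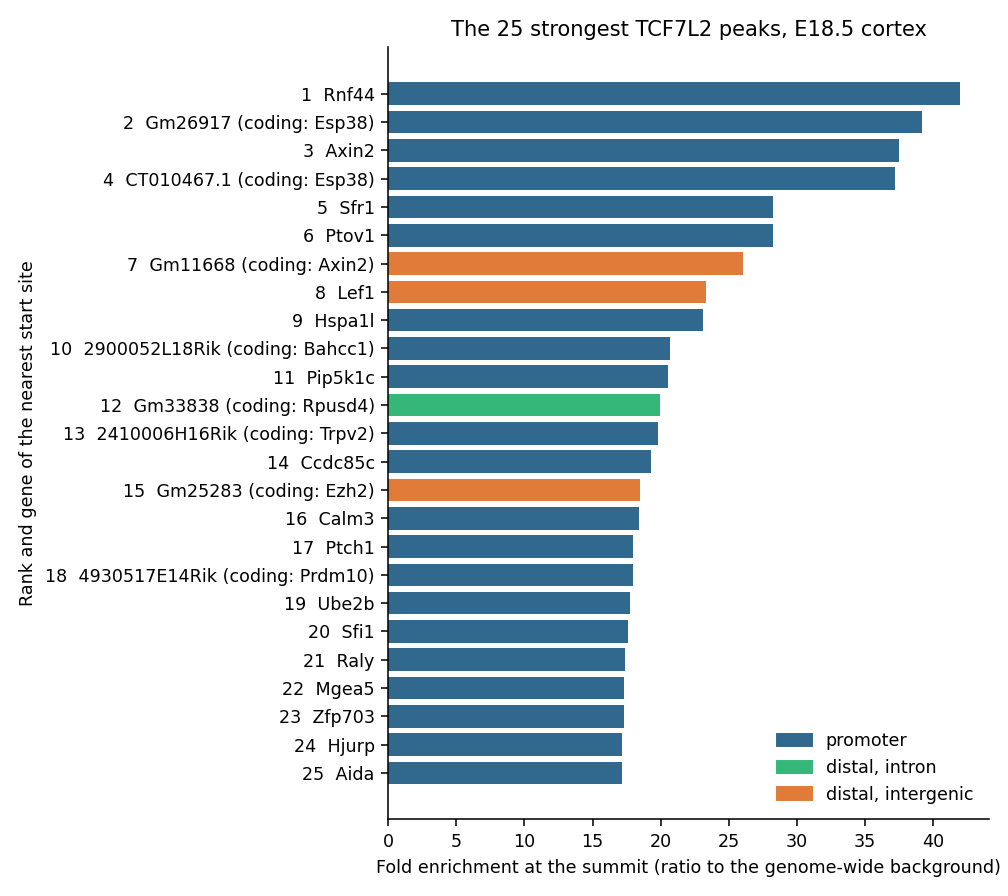
Fold enrichment at the summit (horizontal axis, from 0) of the 25 strongest autosomal peaks, 1 bar a peak, named by the gene of the nearest start site with the nearest protein-coding gene in brackets where the first is noncoding; colour marks promoter, intronic and intergenic peaks. The 4 leading bars lie between 37.2 and 42.0, ahead of a group that starts at 28.2, and 3 of the 25 bars are intergenic.

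The TCF7L2 consensus lay within 100 bp of the summit in 2 of these 25 peaks (Lef1 and Zfp703), a share of 8% (interval 2.22% to 25%) against 0.215% of all peaks. It was found anywhere in the peak in 3 of them, the other being the Axin2 promoter peak, in which the match lay 172 bp from the summit among 6 CTTTGA cores. The distal Axin2 peak held 1 core, 243 bp from its summit. At Sp5, a zinc finger gene activated by Wnt signalling in many tissues, the promoter peak (10.8) held 8 cores in 1052 bp, of which 3 lay in the summit window.

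Promoter peaks, defined as peaks that reach into the 2000 bp in front of the start site of any transcript, were found at 13099 of 20807 autosomal protein-coding genes, which is 63% of them, and 1063 genes (5.11%) had one with a fold enrichment of at least 10. The median over the genes with such a peak was 6.68 (quartiles 5.14 and 8.21), taking the strongest peak of each gene. These shares are the background for the gene lists that follow. Genes with more start sites have more sequence in which a peak can be counted, and a peak between divergent genes counts for both.

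All 18 TCF/LEF factors and beta-catenin cofactors had a promoter peak, and 7 of them (38.9%) a strong one, with a median fold enrichment of 8.32. Among the DNA-binding factors themselves the promoter values were 10.4 for Tcf7, 7.66 for Lef1, 6.68 for Tcf7l2 and 5.69 for Tcf7l1. Tcf7l2, the gene of the immunoprecipitated factor, had 6 promoter peaks and 19 distal peaks for which it was the nearest coding gene, the strongest of which, at 8.21, lay in an intron 13828 bp upstream of the nearest coding start site (chr19:55880384-55881358). Of the coactivators, Pygo2 had the highest value of the list at 15.7, Ctnnb1, which encodes beta-catenin, followed at 14.9, and Bcl9 stood at 10.8, Bcl9l at 7.12 and Pygo1 at 4.82.

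The corepressors and inhibitors on that list were as widely marked. Tle3 reached 11.8, Tle1 10.6, Tle4 9.41 and Tle2 4.38, and the short family member Aes 5.36. The strongest peak at Tle2 was instead 3785 bp upstream, at 12.2. Ctbp2 stood at 8.65 and Ctbp1 at 7.99, and the remaining inhibitors were the chromatin remodeller gene Chd8 at 10.1 and Ctnnbip1, whose product blocks the binding of beta-catenin to TCF factors, at 7.12. Tle3 was also the coding gene nearest to 50 distal peaks, the most of the 18.

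The destruction complex and the receptors had promoter peaks throughout, with different strengths. All 11 genes of the destruction complex list had one and 4 were strong, namely Axin2 (37.5), Gsk3b (11.8), Dvl3 (10.2) and Dvl2 (10.2), and the lowest was Gsk3a at 6.57. All 19 genes of the Frizzled, LRP and other receptors and carriers had one, but 0 were strong: the highest were Fzd1 (9.41), Fzd7 (9.41) and Fzd2 (8.98), and the lowest was Lgr5 (3.28). Secreted ligands were lower still. Of the 23 Wnt and R-spondin genes 16 (69.6%, interval 49.1% to 84.4%) had a promoter peak, a share whose interval holds the background of 63%, with a median of 3.34 and Wnt7a (6.24), Wnt7b (5.47) and Wnt5a (5.04) at the top.
Of the 20 antagonists 17 had one, with the ubiquitin ligase gene Znrf3, which removes Frizzled receptors, at 15, Draxin at 8.43 and Nkd1 at 7.88, and with no promoter peak at Dkk1, Dkk4 or Sostdc1. At a peak threshold of -log10 p of at least 15 the ligands fell from 16 to 6 genes, the antagonists from 17 to 11, the receptors from 19 to 15 and the targets described next from 18 to 14, while all coding genes with a promoter peak fell from 13099 to 10953 of 20807.

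Among 20 genes known as Wnt targets in various tissues, 18 had a promoter peak and 5 (25%) a strong one, against 5.11% of all coding genes. Axin2 led at 37.5, followed by Tnfrsf19 (16.9), Znrf3 (15), Sp5 (10.8) and Tcf7 (10.4). Jun (9.41), Nkd1 (7.88), Lef1 (7.66), Myc (7.66), Ccnd1 (6.90), Neurog1 (6.35), Apcdd1 (5.58), Notum (5.47) and Fosl1 (5.14) lay in the middle of the range. Ascl2 (3.83), Rnf43 (3.83), Lgr5 (3.28) and Cd44 (2.74) had the lowest values of the 18, and Dkk1 and the mesoderm gene T had no promoter peak. The list overlaps the others, since Axin2, Znrf3, Lef1, Tcf7, Nkd1, Apcdd1, Notum, Rnf43, Dkk1, Lgr5, Jun, Ccnd1 and Neurog1 stand in more than 1.

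Distal peaks added to this picture at some of the targets. Axin2 had 15 distal peaks and Nkd1 20, the strongest of the latter at 8.98, 66994 bp upstream of the nearest start site (chr8:88453724-88455369). At Lef1, the promoter peak (7.66) was weaker than the upstream peak (23.3) and than a peak 24495 bp downstream of another of its start sites, the nearest, in an exon of another transcript (9.63, chr3:131136847-131137740), whose summit window held 2 CTTTGA cores. An intronic peak of Tnfrsf19 (6.02, chr14:61012312-61012964), 25251 bp from the nearest start site, held 4 cores, of which 3 lay in the summit window.

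Because the labels name the target TCF4, the E proteins, the family of the gene Tcf4, were listed too. All 7 genes of E proteins and Id factors had a promoter peak: Tcf4 12.04, Tcf3 10.5, Id2 8.76, Tcf12 8.32, Id1 7.44, Id4 7.12 and Id3 6.46. Tcf4 had 19 promoter peaks over its many start sites and 67 distal peaks nearest to it, and Id4 had 29.

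By position, 20038 peaks (38.1%, interval 37.7% to 38.5%) overlapped a promoter, a class that takes up 6.41% of the autosomal bases. The other 32557 were distal. Of these, 17470 (53.7%) had a summit in an intron, 11734 (36.0%) in intergenic sequence, 1459 (4.48%) in a coding exon and 1894 (5.82%) in another exon, whereas introns made up 43.0% and intergenic sequence 52.4% of the distal bases. Per megabase this gave 130 peaks in promoters, 49.98 in coding exons, 18.1 in introns and 9.98 in intergenic sequence. The promoter class counts any overlap, whereas the others count summits, and with the summit inside the promoter share was 30.5%. Promoter peaks were stronger and wider, with a median fold enrichment of 5.04 against 3.28 for distal peaks and a median width of 813 against 353 bp. The 4 distal classes differed little, with medians between 3.17 and 3.39. Of the 1059 peaks with a fold enrichment of at least 10, 938 lay at promoters, 57 were intergenic and 47 intronic.

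**Figure D2:**
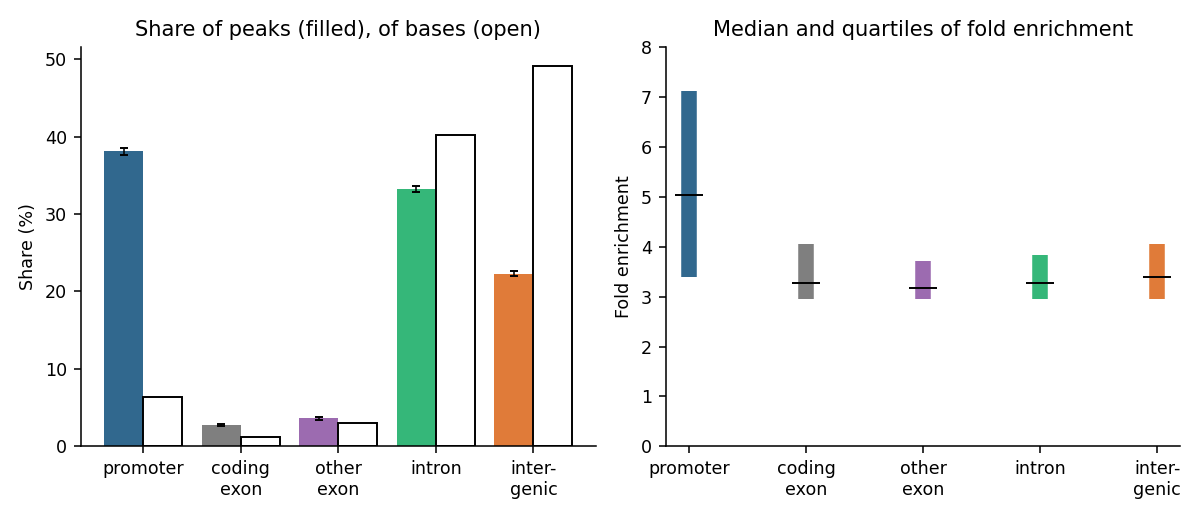
Left, share of the 52595 peaks in each class (filled bars, with 95% Wilson intervals) beside the share of the bases of chromosomes 1 to 19 in that class (open bars), both in percent from 0. Right, fold enrichment of the peaks in each class, with the median as a line and the quartiles as a bar. Promoter peaks have their quartiles at 3.39 and 7.12, each above the same quartile of the other 4 classes, and the bars overlap.

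The classes also differed in base composition. The median GC content of the 200 bp around the summit was 63.5% at promoter peaks and 52.0% at distal peaks, against 41.9% over the autosomes. The observed-to-expected ratio of CpG dinucleotides had a median of 0.72 at promoter peaks and 0.27 at distal peaks, and was 0.51 in windows at the start sites of protein-coding genes. Of the summits 7.53% lay in annotated repeats, which make up 33.5% of the autosomal bases. Reads of low mapping quality had been removed, which bears on repeated sequence, and its part in this share was not tested.

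Summits gathered closely around start sites. Of all peaks 16.6% had a summit within 100 bp of a start site of any gene and 39.2% within 1000 bp, whereas 22.0% lay 5000 to 20000 bp away, 17.6% lay 20000 to 100000 bp away and 2.26% farther. Distances were taken to the nearest start site, and the median distance of a distal peak was 10078 bp. In bins of 50 bp around protein-coding start sites, the fullest was that from 0 to 50 bp downstream, with 2278 summits, and the 1852 summits in the 50 bp upstream came next. Median fold enrichment was highest just upstream, at 6.68 from -150 to -100 bp, and the strong promoter peaks within 1000 bp of a coding start site had their median summit at -30 bp, with 58.8% of them upstream, against 49.3% of all promoter peaks and 43.8% of all peaks in that range. The promoter class itself requires a peak to reach upstream sequence. Farther than about 1000 bp on either side, bin medians lay near 3.2, close to the median of distal peaks.

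**Figure D3:**
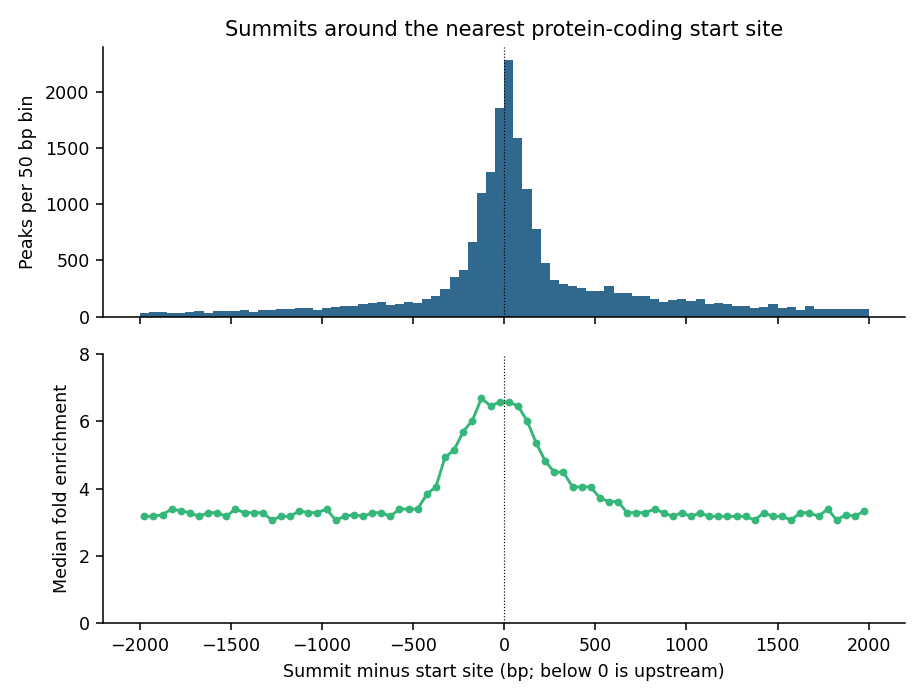
Number of summits per 50 bp bin (top) and their median fold enrichment (bottom) against the signed distance from the nearest protein-coding start site in bp, negative upstream. The count peaks at 2278 in the bin just downstream of the start site and the medians reach 6.68 just upstream of it.

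Among distal peaks with an intronic summit, the 10 strongest ran from 13.1 to 19.9. After Gm33838 came a peak in the AC164106.1 region whose nearest coding gene was Kctd16, 49443 bp away (15.9), and a peak 4499 bp inside Foxo6 (15.9, chr4:120281422-120283969), a forkhead gene expressed in the developing forebrain. Others lay in an intron of Cdk8 (14.3), the Mediator kinase gene, and in an intron of Cadps for which the nearest coding start site was that of Fezf2 (14.01), the selector gene of subcerebral projection neurons, 40982 bp away (chr14:12388446-12389534). The remaining ones were in 2610035D17Rik (13.7, nearest coding gene Slc39a11), in Gse1 (13.7, 18124 bp from the miRNA Gm22715), near Gpr84 and its antisense neighbour Gm49482 (13.6), 28814 bp from the lincRNA Gm35172 (13.5, nearest coding gene Rasgef1b, 226648 bp away) and in Btbd9 (13.1).

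The 10 strongest intergenic peaks ran from 13.8 to 26.1 and began with those of Axin2, Lef1 and Ezh2. Next came one 76851 bp upstream of Chd2 (16.1, with the start site of the lincRNA Gm44738 8838 bp away), which encodes a chromatin remodeller. After it came one 43561 bp upstream of Wnt7b (15.4, with that of the lincRNA Gm49539 20049 bp away, chr15:85625463-85626768), a ligand gene of the cortical plate whose own promoter peak was 5.47. A peak 39229 bp upstream of Ptma reached 15.1 (13838 bp from Rpl30-ps6). Peaks with nearest coding genes Gm8797 (14.7, 109892 bp away), Polr3k (14.6, 53482 bp away) and Tfap2c (13.8, 177570 bp away) were also in the group, with the nearest start sites of any kind, those of Gm25352, Gm5466 and Gm22773, at 20343, 20996 and 135780 bp. Within 100 bp of the summit, the TCF7L2 consensus was found in 1 of these 10, that of Lef1, and in 0 of the 10 intronic ones. The Cdk8 and 2610035D17Rik windows held a CTTTGA core, and the intronic Btbd9 peak held the consensus 172 bp from its summit.

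Distal peaks were spread unevenly over genes. Of the 20807 coding genes, 8187 were nearest to at least 1 distal peak, 6505 had both a promoter peak and a distal one, and 6026 had neither. Genes with 10 or more distal peaks numbered 742, with a median length of 87.3 kb against 17.6 kb over all coding genes. Gse1 led with 141 distal peaks, followed by Auts2 (94), Cwc22 (84), Nfib (79), Tenm4 (77), Zfp608 (68), Tcf4 (67), Dnah8 (65), Gm26897 (64) and Btbd9 (60). Auts2, Nfib, Zfp608 and Tcf4 are regulators of transcription with known expression in the developing cortex, and all 4 are long genes, from 105 kb for Zfp608 to 1106 kb for Auts2.

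Distal peaks also formed dense runs. A single run of distal peaks with gaps of at most 12.5 kb held 93 peaks in 157 kb around Cwc22 (chr2:77869784-78027102), and another held 102 peaks in 205 kb over Dnah8 (chr17:30718304-30923382), against a mean of 14.5 distal peaks per megabase of distal sequence. The median fold enrichment in these runs was 3.83 and 3.17. Gse1 held runs of 78 peaks in 172 kb (3.39) and 46 in 87.1 kb (3.17), Btbd9 1 of 36 in 82.4 kb and Tcf4 1 of 36 in 119 kb. Gm26897 had 64 distal peaks but no promoter peak and a length of 0.65 kb. Whether the input was also high in these runs was likewise not tested. The run method was chosen after these counts were seen.

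The widest peaks lay at promoters. The widest covered 8744 bp over the Tnrc18 promoter (chr5:142816525-142825268, fold enrichment 13.0). The next covered 6620 bp over the lincRNA Gm10655 and the start of Tle3, with its summit 1779 bp upstream of the latter (11.8), and 6343 bp were covered over Tlx3 and Gm12116 (8.65). The other 2 were neighbours over Sfi1, of 6568 and 6288 bp (11.6 and 17.6). Of the 25 strongest peaks 2 were also among the 25 widest.

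Genes that define the cell types of the cortex are given next, by lineage. All 14 radial glia genes had a promoter peak, led by Hes5 (9.85), Hes1 (9.41) and Lhx2 (9.41), with a median of 7.01. Of 11 genes of intermediate progenitors and proneural factors 10 had one, led by Insm1 (12.3), Btg2 (9.74) and Neurod2 (9.41), with Neurod4 the exception, a share whose interval (62.3% to 98.4%) holds the background of 63%. All 10 upper-layer genes had one, led by Pou3f2 (11.6), Pou3f3 (8.76) and Cux2 (8.54), and so did 12 of 13 deep-layer and subplate genes, led by Foxp2 (11.1), Tle4 (9.41) and Fezf2 (7.99), without Cplx3. For these 4 lists the medians ran from 6.08 to 7.50, on either side of the 6.68 of all coding genes with a peak.

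Genes of neurons born outside the cortex came next. All 10 thalamic genes had one, and the median was 5.04, with Lef1 (7.66), Tcf7l2 (6.68) and Rora (6.02) at the top. Of 16 interneuron genes 14 had one, with a median of 4.65, Sox6 (7.66) and Dlx2 (6.35) among them, and without Sst and Adarb2. Glial, vascular and blood genes followed. Of 12 astrocyte and oligodendrocyte genes 7 had a promoter peak, led by Gfap (5.80), Slc1a2 (5.80) and Pdgfra (5.58), and without Aldh1l1, S100b, Aqp4, Sox10 and Cspg4. The interval of this share (31.95% to 80.7%) holds the background of 63%, as does that of the endothelial and mural genes (15.2% to 64.6%).
The count was 4 of 11 for endothelial and mural genes, led by Kcnj8 (4.93), Kdr (4.16) and Flt1 (3.72), and 2 of 16 for microglia, meninges and blood, Col1a1 (4.82) and C1qc (2.96), where the share of 12.5% (interval 3.50% to 36.0%) was under the background of 63%. At -log10 p of at least 15 these 3 lists kept 4, 1 and 1 genes, and 10953 of all 20807 coding genes had a promoter peak.

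**Figure D4:**
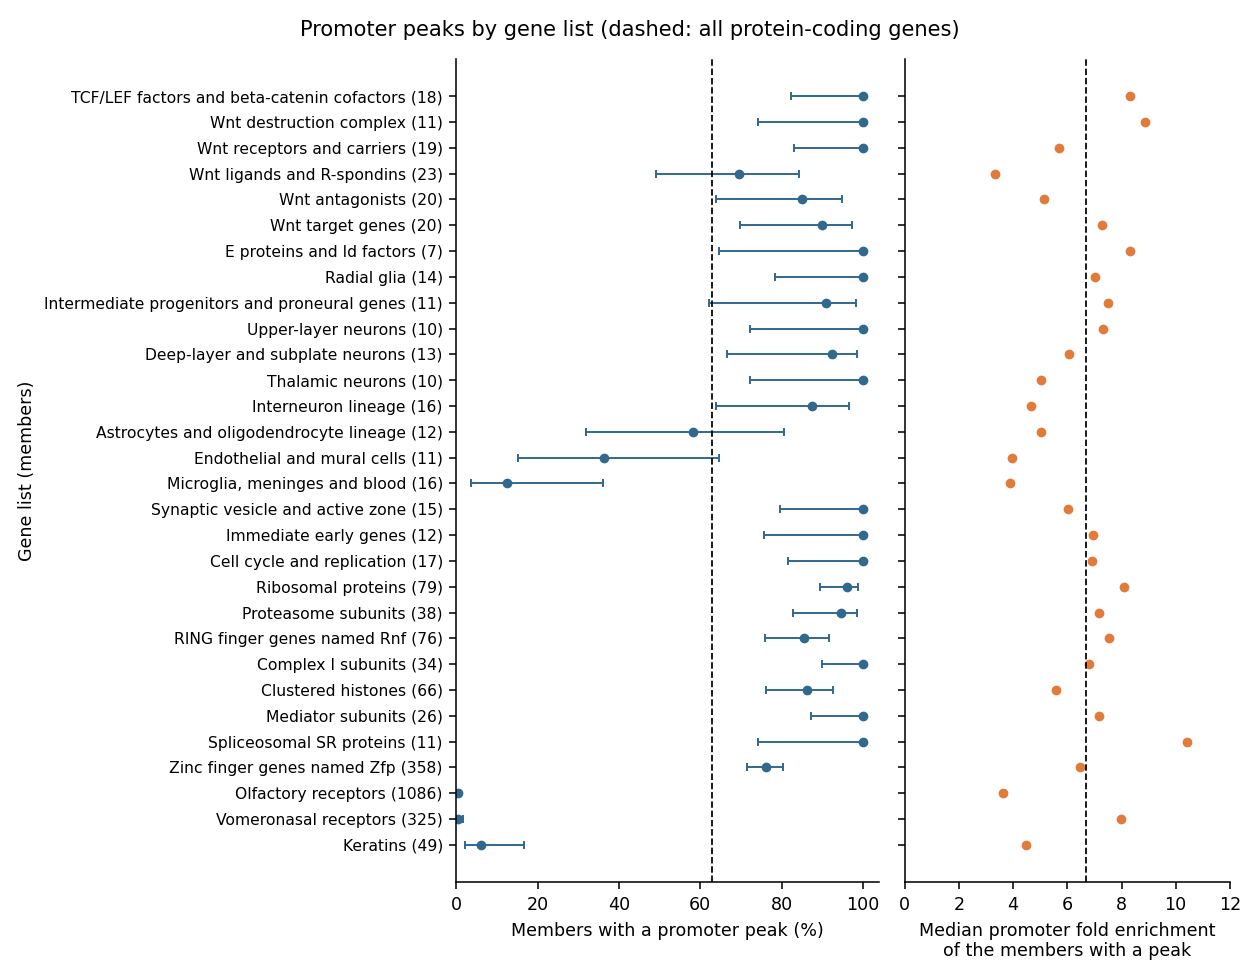
Left, share of each list's members with a promoter peak (points, in percent, with 95% Wilson intervals), beside the 63% of all autosomal protein-coding genes (dashed line). Right, median promoter fold enrichment of the members with a peak, beside the 6.68 of all such genes (dashed line); the value for vomeronasal receptors rests on 1 gene. Spliceosomal SR proteins have the highest median, 10.4, and Wnt ligands the lowest, 3.34.

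Genes in general use carried promoter peaks almost throughout. Of 79 ribosomal protein genes 76 had one (96.2%), led by Rps10 (12.04), Rpl10a (11.8) and Rps12 (11.4), and the exceptions were Rpl10l, Rpl39l and Rpl3l. Of 38 proteasome genes 36 had one, led by Psma7 (12.8), Psmd5 (12.6) and Psmd3 (11.3), without Psma8 and Psmb11. All 34 complex I genes had one (Ndufa13 12.04, Ndufa6 11.2, Ndufs7 9.30), as did all 26 Mediator genes (Med23 9.85, Med22 9.52, Med26 8.76). The 11 SR splicing factor genes stood out in strength among the lists, with 7 strong promoters (63.6%) and a median of 10.4, led by Srsf7 (17.1), Srsf2 (13.7) and Srsf1 (11.9).

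The Rnf, Zfp and clustered histone families had promoter peaks at smaller shares of their members. Of 76 genes named Rnf 65 had a promoter peak (85.5%), and the values after Rnf44 (42.0) dropped to Rnf103 (11.1) and Rnf114 (10.9), so that Rnf44 stood far above its family. Of 358 genes named Zfp 273 had one (76.3%), led by Zfp703 (17.3), Zfp219 (15.2) and Zfp142 (14.4). Of these promoters 19 (5.31% of the 358) were strong, close to the background of 5.11%. Clustered histone genes had one in 57 of 66 cases (Hist2h2bb 9.41, Hist2h4 9.30, Hist1h4h 9.20), with a median of 5.58 and 0 strong ones. All 17 cell cycle genes (Mcm4 10.1, Mcm7 9.20, Mki67 8.32), all 12 immediate early genes (Jun 9.41, Dusp1 8.87, Fos 7.99) and all 15 synaptic vesicle and active zone genes (Vamp2 8.98, Slc17a7 8.65, Pclo 8.1) had a promoter peak.

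Families known from sensory epithelia and skin had almost none. Of 1086 olfactory receptor genes 4 had a promoter peak (0.37%, interval 0.14% to 0.94%), namely Olfr285 (5.14), Olfr325 (3.72), Olfr459 (3.50) and Olfr71 (2.85). It was 1 of 325 for vomeronasal receptors (Vmn1r4, 7.99) and 3 of 49 for keratins (Krt10 6.46, Krt1 4.49, Krt80 3.39). By gene type, promoter peaks were found at 89.5% of 190 bidirectional promoter lncRNAs, 33.5% of 2913 antisense genes, 18.6% of 5209 lincRNAs and 2.40% of 8924 processed pseudogenes. Where such a gene shares its promoter region with a coding gene, the peak counts for both.

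The TCF7L2 consensus was rare at the summits. It was found in 113 of 52595 windows of 200 bp (0.215%, interval 0.179% to 0.258%), against 0.134% of all windows of that length on chromosomes 1 to 19 and 0.111% of windows at coding start sites. Distal windows held it in 0.286% of cases (0.233% to 0.350%) and promoter windows in 0.0998% (0.0646% to 0.154%), the latter with an interval that holds the share at start sites. The share in distal peaks was 0.216% for fold enrichments under 3, 0.473% from 4 to 6 and 4.13% (5 of 121 windows, 1.78% to 9.31%) at 10 or more. Matches were concentrated at the summit, with 38 in the 50 bp on each side, 2.13 times the mean of the outer 200 bp bins (800 to 1000 bp from the summit).

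The result depended on how strict the match was. With 1 mismatch allowed, 2.91% of the windows held a match against 3.78% of all windows, so that the list fell under the autosomal level instead of above it. The core CTTTGA was found in 10.99% of the windows (13.1% of distal and 7.56% of promoter windows), against 15.4% of all windows and 8.54% at start sites. These words hold more A and T than G and C, and the GC content of the windows was above the autosomal value, as given above; its part in the shares was not tested. The consensuses of the related factors LEF1 (0.273% of distal windows, 0.149% of all windows) and TCF7L1 (0.519% and 0.289%), which overlap the TCF7L2 words, were likewise found in more distal windows than in all windows. All 113 windows with the TCF7L2 consensus also count among the 215 windows that held any of these 3 consensuses.

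Sites of several other factors were more frequent in distal peaks than in all windows. The GC content of distal windows was above the autosomal value, and its part in these shares was not tested. The short site of nuclear factor I, for a single subunit, was found in 4.81% of distal windows against 1.63% of all windows, with 3.94% for fold enrichments under 3, 6.85% from 6 to 10 and 4.13% (1.78% to 9.31%) in the 121 peaks of 10 or more. The E-box CAGCTG was found in 19.2% against 7.37% and CAGATG in 24.6% against 15.04%. The consensus of NEUROD1, a proneural helix-loop-helix factor, was found in 0.439% against 0.0502%, and that of the helix-loop-helix factor TCF4 in 4.43% against 1.57%. The consensus of LHX2 was found in 3.18% against 2.49%, that of SOX3 in 4.31% against 3.81% and that of FOXP1 in 0.780% against 0.936%. For JUNB the share was 0.0921% against 0.140%.

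Consensuses usual at start sites were also counted in promoter peaks, and not all of them were the more frequent ones. SOX3 was matched in 548 promoter windows, more than NFY (457) and YY1 (75) but fewer than KLF5 (2404) and ELK4 (763). KLF5 was matched in 12% of promoter windows, ELK4 in 3.81%, NFY in 2.28% and YY1 in 0.374%, against 13.0%, 4.28%, 2.75% and 0.449% of the windows at coding start sites, so that none of these 4 exceeded the start site level. The shares were 0.260% against 0.269% for NRF1, 0.155% against 0.161% for the cAMP response element, 0.115% against 0.206% for GFY and 0.264% (interval 0.202% to 0.346%) against 0.219% for E2F4, and RFX5 was found in 5 of all 52595 windows. AGGGGGCGC, the core of the CTCF site, was found in 1.63% of promoter windows and 0.768% of distal windows. The shares were 0.0400% of all windows and 1.04% at start sites, and here too the part of GC content was not tested. Promoter windows with an ELK4 match had a median fold enrichment of 6.90 against 4.93 without one, with an NFY match 6.79 against 4.93, and with a CTTTGA core 3.83 against 5.14.

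**Figure D5:**
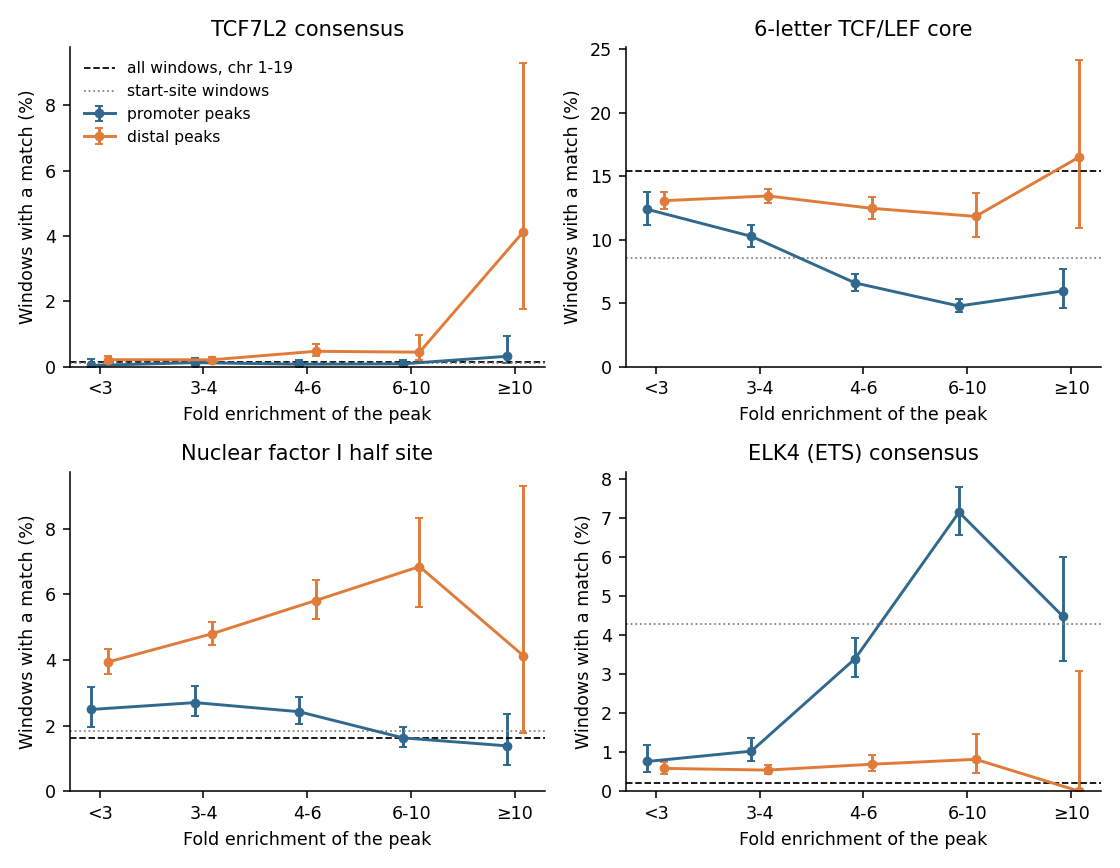
Share of 200 bp summit windows with a match (percent, with 95% Wilson intervals) against the fold enrichment of the peak in 5 ranges, for promoter peaks and distal peaks, beside the share in all windows of chromosomes 1 to 19 (dashed) and at coding start sites (dotted); the 4 panels show the TCF7L2 consensus, the CTTTGA core, the nuclear factor I site and the ELK4 consensus. The TCF7L2 consensus reaches 4.13% in the 121 strongest distal peaks, and the ELK4 consensus 7.14% in promoter peaks of 6 to 10.

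Stronger peaks were more often at promoters. The promoter share was 20.4% for fold enrichments under 3, 46.5% from 4 to 6, 83.3% from 6 to 10 and 88.6% from 10 to 20, and the median width rose from 251 to 1552 bp over the same ranges. Of all peaks 56.3% overlapped a peak of the E15.5 TCF7L2 list, 78.9% E15.5 FOXP1, 74.2% E15.5 ARID1B, 69.9% E18.5 ARID1B and 39.7% E18.5 FOXP1. A longer or wider list overlaps more peaks by itself. No expected share was computed, so the order of these shares does not rank the lists by likeness. The 25 strongest peaks all overlapped the first 4 of these lists, and 23 of them (all but those of Lef1 and Hspa1l) the last.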

How the data were processed

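Neocortex of wild-type E18.5 mice was profiled by ChIP-seq with 2 TCF7L2 ChIP libraries and 2 input libraries. According to the study's methods and the submitters' processing notes, the authors mapped the reads with BWA 0.7.15 to GRCm38 (mm10), filtered them on mapping quality with SAMtools, merged replicates and called narrow peaks with MACS2 2.2.7 at a q-value threshold of 0.01, without a local background; the handling of duplicates was not given in the sources used. The notes also list deepTools 3.4.3. The deposited columns are a fold enrichment (a linear ratio at the summit), −log10 p-values and −log10 q-values, an integer score and the position of the summit. No p-value is printed as a test here. The score was read but not used.

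The values imply whole reads: with fold enrichment taken as reads plus 1 over a background of 8.14 plus 1, the reads came out whole within 0.02 for 100% of the peaks, and the −log10 p followed within 0.01 for 99.99%. With reads extended to 200 bp this corresponds to 76.1 M reads in the smaller of the merged libraries, and the counts at the summit run from 21 to 383. If only 1 read per position and strand was kept, a summit could hold at most 400 reads. Whether such a limit lowered the leading folds was not tested. The 624 peaks outside chromosomes 1 to 19 were left out. Peaks were annotated with GENCODE vM21, while the study names a later release. Promoter peaks overlap the 2000 bp upstream of a start site of any transcript by at least 1 base, other peaks are distal and were classed by their summit (coding exon, other exon, intron, intergenic). Exact matches of consensus sequences from the study's motif table, and of short words, were counted on either strand in 200 bp around the summit, in all windows of that length on chromosomes 1 to 19 and at coding start sites. Scripts (Python 3.11.15, numpy 2.4.6, pandas 2.3.3, scipy 1.17.1, numba 0.67.0) were tested on simulated data. Sequences were read from the GRCm38 assembly of RefSeq.

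Named genes are the 25 strongest peaks, the 10 strongest intronic and intergenic ones and the 3 highest members of each gene list. Members of a list that lack a promoter peak are named where these are 5 or fewer. All members of the TCF/LEF, Wnt target and E protein lists and the 10 genes with most distal peaks are named. So are the 10 strongest peaks with the consensus within 100 bp of the summit and the 5 widest peaks. Members named beyond these were chosen after their values were seen. The members and lists were chosen with earlier results of these data known. The alternatives tried are given in the closing section. Some items that this rule names are not reported here.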

Additional observations from a re-analysis of the deposited data

How the results depend on the processing

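With 1 merged list there was no replicate to leave out. No paired analysis was possible because the replicates were merged before peaks were called and no result comes from a test. Of the 52595 peaks 16393 remained at -log10 p of at least 15 and 13170 at a fold enrichment of at least 5. The promoter share of 38.1% became 70.3% at -log10 p of at least 15, 29.4% with at least 50% of the peak inside, 30.5% with the summit inside, 39.2% for summits within 1000 bp of a start site and 29.97% with protein-coding transcripts only. Among distal peaks the intronic share of 53.7% became 49.5% at -log10 p of at least 15 and 48.2% with protein-coding genes only, and the intergenic share of 36.0% became 40.6% and 43.1%. The share of windows with the TCF7L2 consensus, 0.215%, became 0.133% in 100 bp, 0.342% in 400 bp and 2.91% with 1 mismatch allowed. Window length by itself changes this share, and the shares of all windows given above hold for 200 bp windows only. The number of genes with a promoter peak stayed within 1.5 times of the main count under the alternatives run, from 9800 to 13221, and so did that of strong promoters, from 905 to 1035. Of 30 gene lists 24 kept a count within 1.5 times at -log10 p of at least 15 and 29 for summits within 1000 bp of a start site. Of the 25 widest peaks 23 lay at promoters, against 21 of the strongest. The weakest summit of the list held 21 reads, and how far depth limits the list was not tested.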
